A study of Mus musculus with 18 samples.

Results

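Erythropoietin and stress erythropoiesis signals were followed here as 9 genes, Epor, Erfe, Kit, Kitl, Bmp4, Gdf15, Stat5a, Stat5b and Cish. Each was taken by its Ensembl identifier, through mouse GENCODE M21, from a table of 55414 genes measured in 18 libraries, and all 9 were found. The mice were wild type C57BL/6J. Whole spleens were taken after 30 days of filtered air (n = 4) or of PM2.5, fine airborne particles (n = 4). In a second experiment, macrophages were isolated from spleens of mice given air (n = 5) or PM2.5 (n = 5). The labels of that experiment also mention filtered air around the 30 days, and do not say what it was for. Titles of the exposed libraries read CAP, left unexpanded in the labels, and also hold the word Air. The treatment tag of macrophage PM2.5 replicate 1 says air against a CAP title. That library was grouped by its title. The labels call the samples biological replicates but do not say whether each came from 1 animal, so p-values measure the spread between these samples.

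Erythropoietin is a hormone made mainly in the kidney that keeps red cell precursors alive through its receptor, encoded by Epor. The receptor works with the kinase JAK2 and the transcription factors STAT5A and STAT5B, and Cish is a direct STAT5 target whose product damps the same signal. In the mouse, the spleen makes red cells when demand is high. That response draws on BMP4, on stem cell factor (Kitl) and on its receptor KIT. Erythroblasts under erythropoietin release erythroferrone (Erfe), which lowers hepcidin in the liver so that more iron is available. GDF15 is a secreted stress cytokine of the TGF-beta superfamily.

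Epor and Cish have a start region with letters that transcription factors of this pathway are known to bind, and these are shown because the receptor and the STAT5 target are the ends of the pathway. The sequences are RefSeq windows of 300 bases on GRCm38.p6, from 250 bases before to 50 after a start, and all 9 genes had at least 1 window (13 windows in all). Both strands were searched, and no match overlapped another. Capitals in the Cish window mark TTCNNNGAA, the STAT5 motif, and capitals in the Epor window mark the letters AGATAA, which erythroid factors of the GATA family bind, read here on the opposite strand.
Cish, chr9:107296409-107296708, plus strand: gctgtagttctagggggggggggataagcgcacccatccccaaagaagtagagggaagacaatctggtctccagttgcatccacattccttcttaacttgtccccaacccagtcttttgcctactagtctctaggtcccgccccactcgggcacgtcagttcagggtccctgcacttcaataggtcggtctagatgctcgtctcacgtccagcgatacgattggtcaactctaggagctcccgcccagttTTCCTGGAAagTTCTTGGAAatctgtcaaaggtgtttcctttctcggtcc
Epor, chr9:21963527-21963826, minus strand: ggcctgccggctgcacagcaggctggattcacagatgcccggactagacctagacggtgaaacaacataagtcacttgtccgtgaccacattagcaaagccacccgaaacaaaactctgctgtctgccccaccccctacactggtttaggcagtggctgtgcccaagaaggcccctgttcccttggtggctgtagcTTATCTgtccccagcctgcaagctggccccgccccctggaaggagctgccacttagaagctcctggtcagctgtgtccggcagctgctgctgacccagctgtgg
The Cish window held 2 STAT5 matches, beginning at positions 0 and 11 from the start base. At least 1 such match was present in 8.3% of 32851 mouse windows and at least 2 in 0.457%. The Epor window held 1 GATA match, at position -54, and 11.18% of windows held at least 1. None of the other members' windows held either motif. TGATGNAA, an ATF4 motif, was in no member's window (3.97% of all windows). GGCGCC, a SMAD-type GC motif, had 2 matches in the Erfe window and 2 in 1 of the Stat5a windows. At least 1 such match was in 11.87% of all windows and at least 2 in 2.043%. These are matches of letters in a short window. The RefSeq start of Cish lies 633 bases downstream of the GENCODE start, and that of Epor 70 bases upstream of it.

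On GRCm38, Epor lies at chr9:21958897-21963506 (ENSMUSG00000006235), Kit at chr5:75574916-75656722 (ENSMUSG00000005672) and Kitl at chr10:100015630-100100416 (ENSMUSG00000019966). Bmp4 lies at chr14:46383520-46390669 (ENSMUSG00000021835), Gdf15 at chr8:70629393-70632456 (ENSMUSG00000038508) and Erfe at chr1:91366430-91374217 (ENSMUSG00000047443). Cish lies at chr9:107296026-107302784 (ENSMUSG00000032578). Stat5b at chr11:100780731-100850724 (ENSMUSG00000020919) and Stat5a at chr11:100859351-100885169 (ENSMUSG00000004043) are neighbours on opposite strands. Values are counts over the exons of each gene. Erfe shares 357 exon bases with Ilkap on the opposite strand, 12.682% of its exon length, and Cish shares 479 with Gm17041 and 261 with Gm17040. Bmp4 shares 89 with Gm15217 and Stat5a shares 72 with Stat3. Whether the counting used strand is not stated in the labels, and without strand the reads of these stretches cannot be told apart. Of the 50-base stretches of Stat5b exons, 10.98% also occur in Stat5a, so a small part of the reads of this pair is uncertain.

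Total counts per library lay between 16493694 and 33844807. The macrophage libraries had Vcam1, Spic, Adgre1 and Slc40a1 of red pulp macrophages far above whole spleen. Vcam1 had between 4920 and 7000 CPM (counts relative to the scaled library total) there and between 100 and 197 CPM in spleen. In whole spleen, 2 sets of libraries and 1 further library stood apart. Spleen PM2.5 replicates 2 and 4 had the highest erythroid transcripts, and spleen air replicates 3 and 4 had raised liver transcripts. The mean log2(CPM + 1) of 8 liver genes was 2.87 and 3.57 in those air libraries, against 0.86 to 1.74 in the other 6 spleen libraries. The further library was spleen air replicate 1, lowest of its group for 4 of the 9 members and highest for 4. Its erythroid genes summed to 3810 CPM, beside 569 to 987 CPM in the other air libraries. Its neutrophil genes summed to 105 CPM, beside 12.9 to 19.7 CPM. Spleen results of Epor, Kit, Kitl and Bmp4 are also given without the 2 sets. Here, as in any bulk sample, fewer cells of a type and less RNA per cell cannot be told apart.

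Whole spleen of mice breathing PM2.5 had more Epor and Kit transcript than spleen of mice in air in every library, but with large differences between libraries for Epor. Mean Epor was 1.34 ± 0.764 CPM in air (SD, n = 4) and 19.3 ± 21.9 CPM with PM2.5 (SD, n = 4). Mean Kit was 19.1 ± 4.94 and 33 ± 3.74 CPM. Neither passed the edgeR quasi-likelihood test after adjustment over 16551 genes, and both passed DESeq2. Stat5a, Stat5b, Cish and Gdf15 had nearly equal means in air and PM2.5.

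The receptor of erythropoietin was at few counts in air. Epor had 1.93, 0.856, 0.529 and 2.06 CPM in spleen air replicates 1 to 4, from 10 to 33 counts. It had 2.57, 50.9, 6.59 and 17.1 CPM with PM2.5 replicates 1 to 4, from 55 to 931 counts. The groups did not overlap, but PM2.5 replicate 1 was only just above the highest air library, and replicate 2 was far above all others. The log2 fold change was 3.86 (SE 0.847, 95% interval 1.99 to 5.72), with an adjusted p of 0.118 by edgeR and 0.00327 by DESeq2. Over 20 alternatives of scaling, filter, test and libraries the log2 fold change lay between 1.81 and 4.22 and the adjusted p between 0.00316 and 0.689. The lowest value, 1.81, was without PM2.5 replicates 2 and 4. Without PM2.5 replicate 1 the log2 fold change was 4.22 and the adjusted p 0.0311. Without the 2 air libraries with liver transcripts it was 3.8, with an adjusted p of 0.689.

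Across the PM2.5 spleens, Epor had the same order of libraries as the other red cell genes. In air the order differed, with Epor highest in replicate 4. A reference list of 25 erythroid genes, of which 24 were in the table, had a mean log2(CPM + 1) of 3.94, 2.16, 2.11 and 2.53 in spleen air replicates 1 to 4. In PM2.5 it was 2.94, 7.94, 5.05 and 6.24. PM2.5 replicate 1, lowest of its group for Epor, was also lowest for this list. Its level of the list was below that of air replicate 1, although its Epor was above that of air replicate 1. All 23 tested genes of the list had positive log2 fold changes, with a median of 4.34, beside a median of 0.0172 over all tested genes. At an unadjusted p below 0.05 all 23 were higher, beside 8.93% of all genes. None passed edgeR, and 17 were called higher by DESeq2, beside 3.28% of all genes. The summed level of the list was 569 to 3810 CPM in air and 1250 to 20300 CPM with PM2.5, and up to 3 of its genes were at 0 in an air library. The part of red cell precursors in the Epor values was not tested.

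The receptor of stem cell factor, which marks early progenitors and mast cells, did not share that order. Kit had 23, 20.2, 11.8 and 21.2 CPM in spleen air replicates 1 to 4. It had 37.4, 34.5, 28.8 and 31.2 CPM with PM2.5 replicates 1 to 4. The groups did not overlap, and replicate 1, low for Epor, was the highest of the PM2.5 libraries for Kit. Kit had a log2 fold change of 0.792 (SE 0.205, 95% interval 0.34 to 1.24), with an adjusted p of 0.127 by edgeR and 0.0124 by DESeq2. It was 0.822 without PM2.5 replicates 2 and 4 and 0.606 without the air libraries with liver transcripts, and it lay between 0.606 and 0.892 over 20 alternatives, with adjusted p between 0.0124 and 0.689. Markers of cells that carry KIT were also measured. Of 11 mast cell and basophil genes, 3 could be tested, with a median log2 fold change of 0.708 and no call. These were Gata2 (1.46), which is also in the list of KIT partners, Hdc (0.708) and Cpa3 (-0.041). The summed level of all 11 was 3.38 to 11.1 CPM in air and 9.01 to 26.6 CPM with PM2.5. Of these 11, between 5 and 9 were at 0 in an air library and between 2 and 5 in a PM2.5 library. Of 11 tested stem, progenitor and megakaryocyte genes, 10 had positive values, with a median of 0.574 and no edgeR call. DESeq2 called 2 of them higher, beside 3.28% of all genes. The summed level of this list was 325 to 584 CPM in air and 360 to 577 CPM with PM2.5. All 12 red pulp macrophage genes also had positive log2 fold changes, with a median of 0.746. Of these, 8 were higher at an unadjusted p below 0.05 (8.93% over all genes), 0 passed edgeR and 4 passed DESeq2 (Cd163, Slc40a1, Csf1r and Mertk). Their summed level was 392 to 754 CPM in air and 696 to 984 CPM with PM2.5, and none was at 0. The part of these cell types in the Kit values was not tested.

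**Figure D1:**
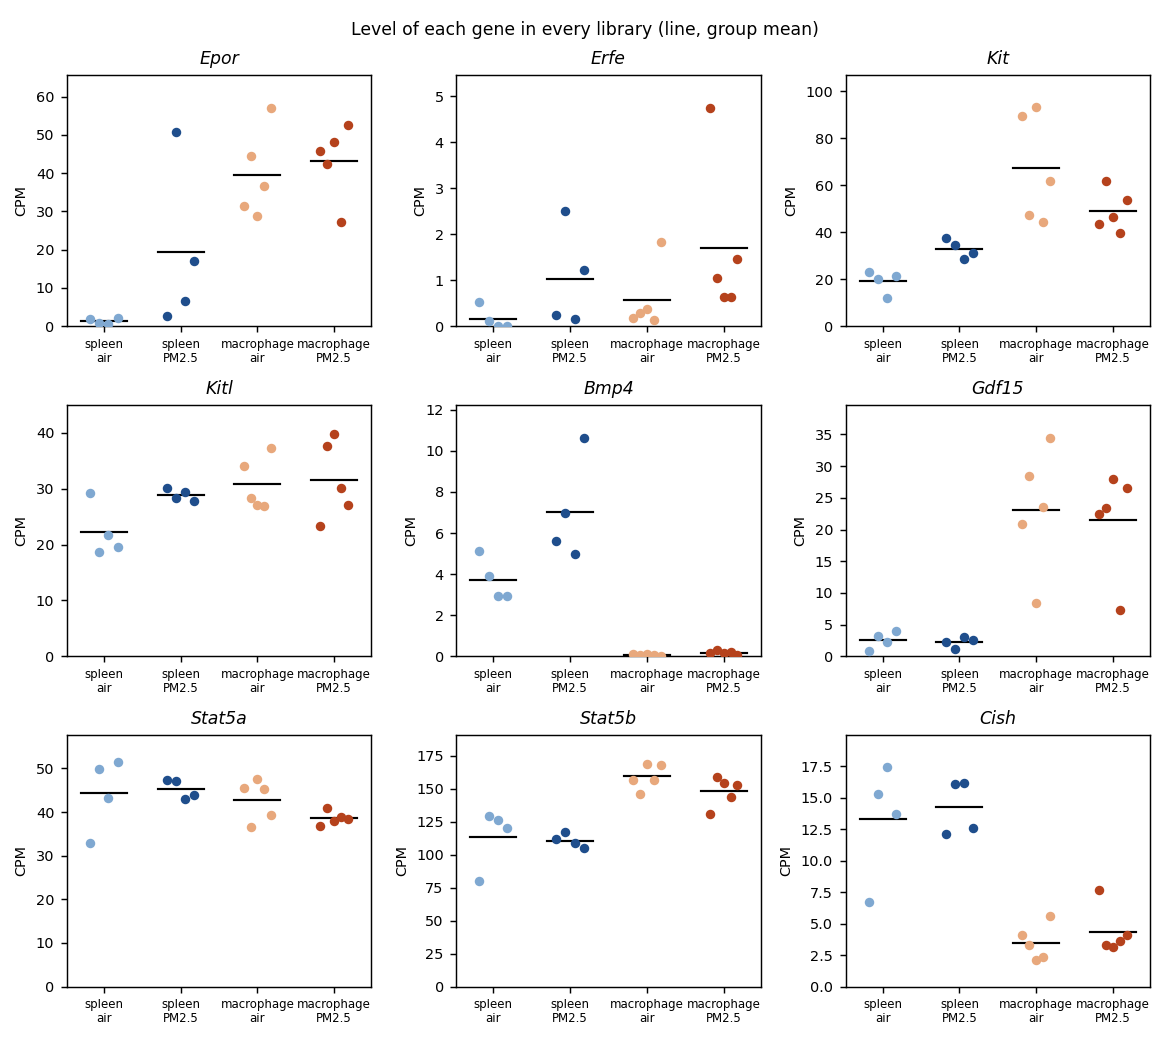
Level of each gene in CPM (y axis) in every library, with libraries of the 4 groups on the x axis and a line at the group mean. CPM are scaled within each experiment. In spleen, all 4 PM2.5 libraries sit above all 4 air libraries for Epor and Kit, and in macrophages the groups overlap for every gene.

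The ligands and secreted factors had smaller differences. Kitl, which encodes stem cell factor, had 29.2, 18.7, 21.8 and 19.5 CPM in spleen air and 30.1, 28.4, 29.4 and 27.8 CPM with PM2.5. Air replicate 1 lay within the PM2.5 range, so the groups overlapped, while the other 3 air libraries were below it. Kitl had a log2 fold change of 0.376 (SE 0.165) with an adjusted p of 0.282 by edgeR, and 0.445 on the log2 scale without PM2.5 replicates 2 and 4. Bmp4 had 5.11, 3.9, 2.96 and 2.93 CPM in air and 5.61, 6.99, 4.96 and 10.6 CPM with PM2.5. Only air replicate 1 and PM2.5 replicate 3 overlapped. Its log2 fold change was 0.92 (SE 0.319), with an adjusted p of 0.191 by edgeR and 0.0807 by DESeq2. Without PM2.5 replicates 2 and 4 it was 0.531, with an adjusted p of 0.692, and over its alternatives the adjusted p lay between 0.0807 and 0.698. Without the air libraries with liver transcripts Bmp4 was at 0.64 and Kitl at 0.27. Genes of supporting and lining cells, which can make both ligands, were also measured, and of these lists the mesothelial one stood higher in every PM2.5 library. All 9 mesothelial genes had positive log2 fold changes, with a median of 4.78 and no edgeR call. DESeq2 called 8 of them higher, beside 3.28% of all genes. Their summed level was 3.87 to 9.03 CPM in air and 47.7 to 319 CPM with PM2.5. PM2.5 replicate 4, highest for Bmp4, was also highest for this list. The order did not hold below it, since PM2.5 replicate 3, lowest for Bmp4, had 160 CPM of this list, above replicates 1 and 2. Of 15 stromal genes 13 had positive values (median 0.638, summed 664 to 992 CPM in air and 715 to 1600 CPM with PM2.5), and of 11 endothelial genes 9 had (median 0.63, summed 296 to 349 and 341 to 458 CPM). The sums of both lists overlapped between the groups, since air replicate 1 had 992 CPM of stromal and 349 CPM of endothelial genes, while PM2.5 replicate 1, highest for Kitl, had 715 and 341 CPM, the lowest of its group. Neither list had an edgeR call. At an unadjusted p below 0.05, 7 stromal genes were higher and 2 lower, and 6 endothelial genes were higher (8.93% of all genes were higher). DESeq2 called 4 stromal genes higher (Tcf21, Col3a1, Tlx1 and Pdgfra), 1 lower (Ccl19) and 4 endothelial genes higher (Stab2, Vwf, Tie1 and Egfl7). Of these, Stab2 and Vwf were also abundant in isolated macrophages, with means of 387 and 77.8 CPM in macrophage air beside 13 and 12.5 CPM in spleen air. The part of supporting and lining cells in the Kitl and Bmp4 values was not tested.

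Gdf15 and Erfe were low in whole spleen. Gdf15 had 0.797, 3.21, 2.33 and 3.99 CPM in air and 2.29, 1.15, 3.12 and 2.57 CPM with PM2.5, and the PM2.5 values lay inside the air range. Its log2 fold change was -0.177 (95% interval -1.27 to 0.914, edgeR adjusted p 0.892), a wide interval at this depth. Erfe had 8, 2, 0 and 0 counts in air replicates 1 to 4 and 5, 46, 3 and 24 counts in PM2.5. It did not pass the filter on low counts in spleen. A count of 0 allows up to 3 counts in a library, so the spread of counting alone is large here. The PM2.5 libraries with most Erfe, replicates 2 and 4, were those with most Epor. Fitted without a filter, the log2 fold change was 2.72 (SE 1.2), with an adjusted p of 0.348 by edgeR over 29784 genes.

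The signal transducers downstream of the receptors were abundant and even. Stat5b had 79.7, 129, 126 and 120 CPM in spleen air and 112, 117, 109 and 105 CPM with PM2.5. Stat5a had 32.9, 49.9, 43.2 and 51.5 CPM in air and 47.4, 47, 43.1 and 43.9 CPM with PM2.5. In both genes the widest gap was within the air group, where replicate 1 was lowest, and the PM2.5 libraries lay within the air range. The log2 fold change was -0.036 for Stat5b (95% interval -0.365 to 0.293) and 0.0313 for Stat5a (95% interval -0.299 to 0.362), with edgeR adjusted p of 0.928 and 0.939. Cish, the STAT5 target with the paired motif matches shown above, had 6.71, 15.3, 17.4 and 13.7 CPM in air and 12.1, 16.1, 16.2 and 12.6 CPM with PM2.5. Air replicate 1 was again the lowest, and the other 7 libraries lay between 12.1 and 17.4 CPM. Cish had a log2 fold change of 0.0994 (95% interval -0.502 to 0.701, edgeR adjusted p 0.89). PM2.5 replicate 2, the library with by far the most Epor, had 16.1 CPM of Cish, within the air range. Which cells of the spleen carried the Cish transcript was not tested.

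Of the 8 members tested in spleen, 0 were called by edgeR, where 0.0121% of all tested genes were called (2 of 16551). At an unadjusted p below 0.05, 4 of 8 were higher in PM2.5 (Epor, Kit, Bmp4 and Kitl), where the share over all genes was 8.93%. The groups did not overlap for 2 of 8, Epor and Kit, both higher in PM2.5, beside 4.41% of all genes. By DESeq2, the same 2 were called higher, beside 3.28% of all genes. Positive log2 fold changes were found for 6 of 8, beside 51.8%, and the median was 0.238, beside 0.0172. Fitted jointly with the macrophage libraries, the spleen contrast called Epor (adjusted p 0.00541) but not Kit (adjusted p 0.0524).

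The wider pathway showed few differences in spleen, and no gene of the pathway lists passed edgeR. At an unadjusted p below 0.05, 8.93% of all tested genes were higher, and 3.28% were called higher by DESeq2. By DESeq2, 5 genes of these lists were called, Gata1 and Bcl2l1 among the targets, Tal1 among the KIT partners, and Eng and Bmp6 among the BMP genes. The hormone itself, Epo, had 0 counts in all 18 libraries. Of 16 tested genes that carry the receptor's signal, 11 had positive values (median 0.185) and 3 were higher at an unadjusted p below 0.05. These were Tfr2, an iron sensor that binds the receptor (0.432 ± 0.369 CPM in air and 5.93 ± 7.09 CPM with PM2.5, log2 fold change 3.77), and the adaptors Irs2 (0.421) and Gab1 (0.503). None of 8 negative regulators of the receptor and JAK2 reached that level, and the smallest p was that of Pias3 (0.173). Of 15 targets of STAT5 or erythropoietin, 3 were higher and 1 lower at an unadjusted p below 0.05, with a median of 0.142. The 3 with the smallest p were Gata1, the main erythroid transcription factor (log2 fold change 3.15), the survival factor Bcl2l1 (1.29) and the transferrin receptor Tfrc (1.26). All are also high in red cell precursors. Of 12 partners of KIT, 11 had positive values and 3 were higher at an unadjusted p below 0.05, the transcription factors Tal1 (3.01) and Gata2 (1.46) and the receptor Flt3 (0.381).

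Of 17 tested BMP receptors, SMADs and antagonists, 14 had positive values in spleen (median 0.215) and 3 were higher at an unadjusted p below 0.05. Eng, a BMP co-receptor of endothelium and macrophages, had 28 ± 8.55 CPM in air and 50.6 ± 10.8 CPM with PM2.5 without overlap (log2 fold change 0.853, edgeR adjusted p 0.126). Bmp6, a ligand made by endothelium, had 1.16 ± 0.711 and 4.45 ± 3 CPM, also without overlap (1.94, adjusted p 0.149). The receptor Acvrl1 had a log2 fold change of 0.618. In the hedgehog list, which acts upstream of Bmp4 in stress erythropoiesis, 6 of 9 genes could be tested, and Smo, its signal transducer, had the smallest p (1.15, adjusted p 0.177). In the list of the GDF15 receptor and the integrated stress response, 8 of 10 could be tested and 7 had positive values. Asns, an amino acid synthesis enzyme, was the only one at an unadjusted p below 0.05 (2.58, adjusted p 0.152), and Gfral, the GDF15 receptor, had 0 counts in all 18 libraries. Of 8 tested genes of oxygen sensing and the glucocorticoid receptor, Vhl was lower at that level (log2 fold change -0.365, adjusted p 0.205) and no gene was higher.

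In isolated macrophages, no member differed between PM2.5 and air beyond the spread of the libraries. Epor was high in every library, and its means were 39.7 ± 11.4 CPM in air (SD, n = 5) and 43.2 ± 9.67 CPM with PM2.5 (SD, n = 5). Erfe had the largest positive log2 fold change, 1.63, and Kit the largest negative one, -0.457. Of the 8 members tested, 0 were called by edgeR, as were 0% of 15696 genes, and 0 had an unadjusted p below 0.05, beside 10.9% of all genes. DESeq2 called 0 members, beside 1.12% of all genes, and 0 had groups without overlap, beside 2.23%.

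Epor had 31.5, 44.4, 28.8, 36.6 and 57 CPM in macrophage air replicates 1 to 5 and 45.7, 42.3, 48.2, 27.2 and 52.5 CPM with PM2.5. The lowest library of all was in PM2.5 and the highest in air. Its log2 fold change was 0.127 (95% interval -0.318 to 0.572), with an edgeR adjusted p of 0.84. The erythroid list was present in these libraries too, at a summed 2570 to 9680 CPM in air and 4790 to 8650 CPM with PM2.5. All 24 of its genes had positive log2 fold changes, from 0.002 to 0.885 with a median of 0.519, and 0 were called by edgeR, DESeq2 or at an unadjusted p below 0.05.

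Erfe had 5, 5, 11, 3 and 33 counts in macrophage air and 85, 30, 21, 13 and 42 counts in PM2.5. In CPM these were 0.182, 0.277, 0.379, 0.141 and 1.82 in air and 4.74, 1.05, 0.624, 0.631 and 1.46 in PM2.5. Of the 5 air libraries, 4 were below all PM2.5 libraries, and air replicate 5 was above all but PM2.5 replicate 1. The 95% interval of the log2 fold change was -0.0227 to 3.28 and the edgeR adjusted p 0.471. PM2.5 replicate 1, the library whose treatment tag says air, had the highest value. Without it the log2 fold change was 0.832, counted as air it was -0.355, and without air replicate 5 it was 2.7. The adjusted p lay between 0.296 and 0.92 over the alternatives.

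Kit had 89.4, 47.3, 93.4, 44.5 and 62 CPM in macrophage air and 43.6, 61.9, 46.5, 39.5 and 53.8 CPM with PM2.5. Air replicates 1 and 3 were far above all PM2.5 libraries, air replicate 5 was level with the highest of them, and the other 2 lay among them. Kit had a log2 fold change of -0.457 (SE 0.213, 95% interval -0.921 to 0.007), with an edgeR adjusted p of 0.472. The same 2 air libraries had the lowest levels of the erythroid list in their group, with a mean log2(CPM + 1) of 5.14 and 3.32. Mast cell and basophil genes summed to 8.02 to 23 CPM in air and 15.7 to 26.3 CPM with PM2.5, and all 9 tested had positive log2 fold changes (median 0.557, no call), opposite in sign to Kit. Of 12 red pulp macrophage genes, 11 had negative values (median -0.239) and 4 were lower at an unadjusted p below 0.05, with no call and sums of 17900 to 25000 CPM in air and 15100 to 21100 CPM with PM2.5. Of 9 tested stem, progenitor and megakaryocyte genes, 6 had positive and 3 negative values (median 0.312), with no call. At an unadjusted p below 0.05, 3 were higher and 2 lower, Flt3 (-0.586) and Meis1 (-0.352), beside 10.9% of all genes in either direction. The part of these cells in the Kit values was not tested.

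The other macrophage values were even. Kitl had 34.1, 28.4, 27.1, 27 and 37.3 CPM in air and 23.3, 37.6, 39.9, 30.2 and 27.1 CPM with PM2.5, with a log2 fold change of 0.0405 (95% interval -0.293 to 0.374). Gdf15 had 20.8, 28.4, 8.47, 23.5 and 34.4 CPM in air and 22.4, 23.4, 28, 7.33 and 26.6 CPM with PM2.5, with a log2 fold change of -0.0926 (95% interval -0.905 to 0.72). In each group 1 library was far below the other 4, air replicate 3 and PM2.5 replicate 4. Stat5b had 157, 146, 169, 157 and 168 CPM in air and 131, 159, 154, 144 and 153 CPM with PM2.5, a log2 fold change of -0.107 (95% interval -0.268 to 0.0551). Stat5a had 45.6, 36.5, 47.5, 45.3 and 39.4 CPM in air and 36.8, 41, 37.9, 38.8 and 38.5 CPM with PM2.5, a log2 fold change of -0.152 (95% interval -0.33 to 0.0263). The intervals of these transducers were the narrowest among the members in this comparison. Cish had 4.12, 3.26, 2.07, 2.31 and 5.61 CPM in air and 7.64, 3.3, 3.15, 3.64 and 4.1 CPM with PM2.5. PM2.5 replicate 1 was the highest of all 10, and the log2 fold change of 0.324 (95% interval -0.364 to 1.01) was 0.0282 without it and -0.231 with that library counted as air. Bmp4 had 3, 1, 4, 1 and 0 counts in air and 3, 9, 5, 4 and 2 counts in PM2.5, and it did not pass the filter. Fitted without a filter its log2 fold change was 1.18 (SE 0.664, edgeR adjusted p 0.652).

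No gene of the pathway lists was called by edgeR in macrophages either, and DESeq2 called Tfr2, Socs3 and Asns, all higher. Among genes that carry the erythropoietin signal, Tfr2 had the smallest p (2.09 ± 1.04 CPM in air and 5.91 ± 2.29 CPM with PM2.5, log2 fold change 1.53, adjusted p 0.287). The kinase subunit Pik3cd (-0.232) and the kinase Lyn (-0.196) were lower at an unadjusted p below 0.05, and 13 of the 16 tested had negative values. Among the feedback inhibitors, Socs3 had 30.8 ± 2.85 and 39.7 ± 4.04 CPM (log2 fold change 0.368, adjusted p 0.258) and Socs2 had 17.6 ± 2.43 and 13.1 ± 1.58 CPM (-0.426, adjusted p 0.287). Both are STAT targets like Cish, and their values had opposite signs. The surface protein Podxl, an erythropoietin target, had 0.592 ± 0.156 and 1.5 ± 1.25 CPM (1.3, adjusted p 0.358). Among KIT partners Flt3 had a log2 fold change of -0.586 and Csf2rb of -0.236. Among BMP genes, Smad1 (-0.262), Eng (-0.341) and Acvrl1 (-0.269) were lower at an unadjusted p below 0.05, 1 gene was higher, and 11 of 15 tested had negative values. In the GDF15 and stress response list, Asns (1.43) and the GDF15 co-receptor Ret (1.04) were higher at that level and the transcription factor Atf3 (-0.659) lower. No hedgehog or oxygen sensing gene reached it, with smallest p for Smo (0.156) and Egln3 (0.101).

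The PM2.5 effect differed between the preparations for Epor. In a joint fit of all libraries, the log2 fold change in macrophages was lower than that in spleen by 3.74 for Epor (difference -3.74, SE 0.826, 95% interval -5.47 to -2.01). Its adjusted p was 0.039 by edgeR over 17779 genes and 0.00215 by DESeq2. For Kit the difference was -1.25 (SE 0.313, 95% interval -1.91 to -0.599), with an adjusted p of 0.0509 by edgeR and 0.00589 by DESeq2. The values behind it were positive in spleen and negative in macrophages. For the other members, the difference did not pass either test. It was -0.341 for Kitl, -1.09 for Erfe, 0.233 for Bmp4, 0.0682 for Gdf15, -0.191 for Stat5a, -0.0781 for Stat5b and 0.216 for Cish.

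Thus 1 of 9 members was called for this difference by edgeR, in the lower direction, beside 1.04% of all genes, and 2 of 9 by DESeq2, beside 3.66%. The same 2 had an unadjusted p below 0.05, beside 10.3%. The median difference was -0.191 over the members and -0.0319 over all genes. The Epor call was near the threshold. It was lost in 16 of 30 alternatives, with values between -4.11 and -1.69 and adjusted p between 0.00215 and 0.17. Without spleen PM2.5 replicates 2 and 4 the difference was -1.69 (adjusted p 0.125), without the spleen air libraries with liver transcripts -3.64 (0.17), and with macrophage PM2.5 replicate 1 counted as air -3.79 (0.0528). The single libraries whose omission ended the call were spleen air 3 and 4, spleen PM2.5 4, macrophage air 1, 2, 3 and 5, and macrophage PM2.5 1, 3 and 4, with adjusted p of up to 0.0865. The Kit difference lay between -1.36 and -1.05 in all 30 alternatives, with adjusted p between 0.00589 and 0.186. Among all tested genes, 74 of 259 calls were higher in this contrast, and 38 of 230 with DESeq2's size factors. The experiments also differed in material and were run separately, so preparation and experiment cannot be told apart. Of the pathway lists, 1 gene was called, Eng, with a difference of -1.2 (edgeR adjusted p 0.0249). All 24 erythroid genes had negative differences (median -3.73), of which 0 were called by edgeR and 7 by DESeq2. All 9 mesothelial genes did too (median -3.65), with 1 edgeR call, Wt1. All 12 red pulp macrophage genes also had negative differences (median -1.09), with 4 edgeR calls (Cd163, Csf1r, Adgre1 and Treml4) and 7 DESeq2 calls. Stab2 of the endothelial list, Tcf21 of stroma and Cma1 of mast cells were called lower by edgeR as well. Cma1 was near the floor, so its call rests on few counts. It did not pass the count filter in spleen, and its means were 0.661 CPM in macrophage air and 1.09 CPM in macrophage PM2.5. In air, Stab2 had a mean of 387 CPM in macrophages and 13 CPM in spleen, each scaled within its experiment. The part of these cell types in the Epor, Kit and Eng differences was not tested.

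**Figure D2:**
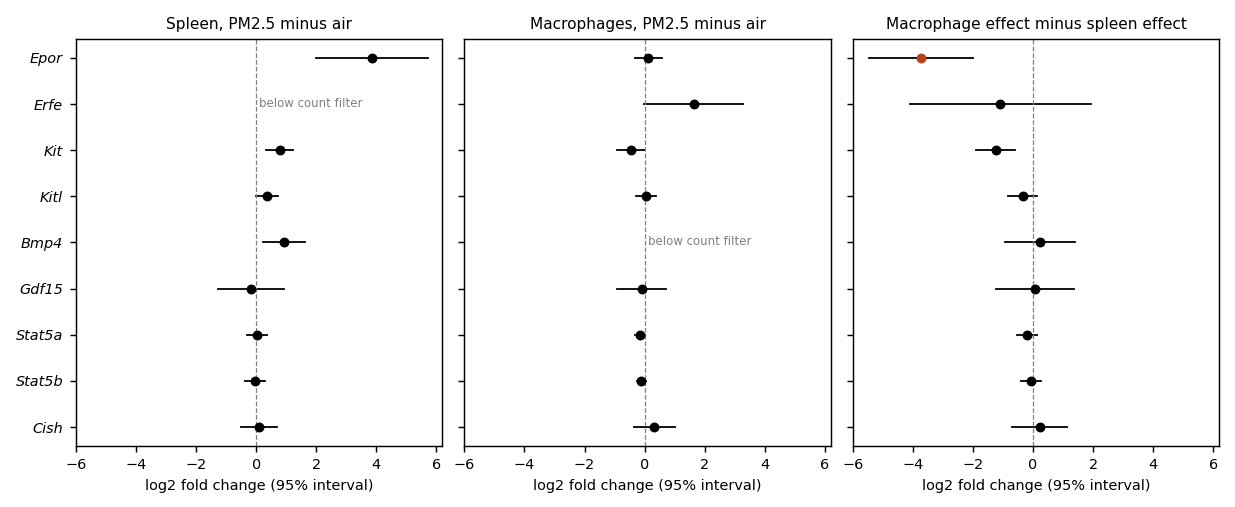
Log2 fold change of each gene (x axis) with its 95% interval (bars) for PM2.5 minus air in spleen, PM2.5 minus air in macrophages, and the difference of these effects. Epor at -3.74 in the panel of differences, in red, is the point past the edgeR threshold, and genes below the count filter have no point.

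Without exposure, the preparations differed strongly in these genes. Against whole spleen in air, macrophages in air were higher in Epor, Gdf15, Kit, Stat5b and Kitl and lower in Bmp4 and Cish. Of 9 members, 7 were called by edgeR, beside 66.5% of all genes, so a call was the usual outcome in this contrast. Higher calls numbered 5, beside 33.3%, and lower calls 2, beside 33.3%. The groups did not overlap in 6, Epor, Gdf15, Kit, Stat5b, Kitl and Bmp4, beside 56.2%. Upper-quartile scaling shifted the median of all genes in this contrast by -0.294 on the log2 scale, and moved the higher calls from 5916 of 11831 to 4452 of 12182, but left all 7 member calls and their directions in place.

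The erythropoietin receptor had the largest positive difference. Epor was 5.2 higher on the log2 scale (SE 0.688, 95% interval 3.76 to 6.64, edgeR adjusted p 2.25e-06). Kit was 2.11 higher (SE 0.235, adjusted p 2.47e-07). Both receptors thus had more transcript relative to the total in the macrophage preparation than in whole spleen. Among the secreted factors, Gdf15 was 3.44 higher (SE 0.474, adjusted p 3.68e-06) and Kitl 0.753 higher (SE 0.166, adjusted p 0.000583). Bmp4 was at the opposite end, with a difference of -5.21 (SE 0.459, adjusted p 1.07e-08) and at most 4 counts in any macrophage air library. Among transducers, Stat5b was 0.778 higher (SE 0.114, adjusted p 7.62e-06) and Stat5a 0.241 higher without passing (adjusted p 0.0655). The Stat5a value became -0.0522 with upper-quartile scaling. Cish was lower, with a difference of -1.65 (SE 0.316, adjusted p 0.000152). Erfe was not called, with a difference of 2.09 (SE 1.15, adjusted p 0.118).

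The lists around these genes split in the same contrast. Of 16 tested genes that carry the erythropoietin signal, 14 were called higher in macrophages and none lower, with a median of 0.957, among them Gab2 (3.28), Irs2 (2.17), Pik3r1 (1.77), Gab1 (1.74), Lyn (1.67) and Grb2 (0.777). Several of these adaptors and kinases also serve other receptors of myeloid cells. Of the negative regulators, 4 were higher, including Ptpn1 (1.62), Cbl (1.56) and Sh2b3 (1.18), and Socs1 was lower (-1.69). Of 15 targets of STAT5 or erythropoietin, 4 were called higher, including Pim1 (1.2), Pim3 (1.11) and Serpina3g (0.728). A further 5 were called lower, including Podxl (-4.47), Id1 (-2.32) and Spry1 (-1.59), so this list had no common direction. Of 12 KIT partners, 9 were higher, including Mitf (2.33), Csf2rb (2.16) and Flt3 (1.39), and 2 were lower, Ldb1 (-0.665) and Lmo2 (-0.366). In the BMP list, 7 were higher and 5 lower, with Acvrl1 (2.89) and Id2 (2.32) among the former and the antagonist Grem1 (-6.63), Id3 (-2.14) and the receptor Bmpr1a (-1.79) among the latter. The hedgehog list had 3 lower calls, Gli2 (-5.83), Gli3 (-3.01) and Smo (-0.913), and none higher. In the stress response list, Atf3 (5.9), Sesn2 (3.32) and Eif2ak1 (0.685) were higher, as Gdf15 was, and Atf4 (-0.395), Ret (-1.69) and Trib3 (-1.13) were lower. In the oxygen sensing list 3 were higher, Nr3c1 (0.761), Arnt (0.572) and Hif1a (0.51), and 3 lower, Epas1 (-3.23), Egln3 (-1.54) and Vhl (-0.517).

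Markers of several cell types moved with the members in this contrast, in which 33.3% of all genes were called higher and 33.3% lower. All 12 red pulp macrophage genes were called higher in macrophages (median 5.56). Of 24 erythroid genes, 21 were called higher and none lower (median 3.92), beside the higher Epor. Of 10 tested mast cell and basophil genes, 6 were called higher and none lower (median 2.26), beside the higher Kit, while of 11 stem, progenitor and megakaryocyte genes 9 were called lower and 1 higher (median -3.03). The mast cell and basophil list was near the floor, with sums of 3.38 to 11.1 CPM in spleen air and 8.02 to 23 CPM in macrophage air. Up to 9 of its genes were at 0 in a spleen air library. Of 15 stromal genes, 13 were called lower and none higher (median -4.56), beside the lower Bmp4, and of 11 endothelial genes 8 were lower and 3 higher. The part of these cell types in the members' differences was not tested.

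Levels can be set side by side between genes only per exon length, with all libraries scaled together. In spleen air, Stat5b was highest at 18.3 ± 3.63 CPM per kb (SD, n = 4), followed by Stat5a at 5.56 ± 1.02 and Kitl at 3.38 ± 0.759. Next came Kit at 1.91 ± 0.501, Cish at 1.85 ± 0.64, Bmp4 at 1.49 ± 0.426 and Gdf15 at 1.24 ± 0.65 CPM per kb, and neighbours among these did not differ beyond their spread. Kit, at most 2.34 CPM per kb, lay below the lowest Kitl library, at 2.84. Epor at 0.603 ± 0.342 CPM per kb overlapped Gdf15, and Erfe at 0.0513 ± 0.0814 was lowest. The order was different in macrophage air, where Epor at 21.8 ± 6.26 CPM per kb (SD, n = 5) was next to Stat5b at 31.5 ± 1.92. Gdf15 followed at 13.6 ± 5.73 and Kit at 8.26 ± 2.83, then Stat5a at 6.57 ± 0.719 and Kitl at 5.7 ± 0.866 CPM per kb. From Epor down to Kitl, the mean ± SD of each gene overlapped that of its neighbour. Cish at 0.591 ± 0.247, Erfe at 0.217 ± 0.275 and Bmp4 at 0.034 ± 0.0264 CPM per kb were lowest there. With PM2.5, Epor had 8.61 ± 9.66 CPM per kb in spleen and 23.7 ± 5.32 in macrophages, and only spleen replicate 2, at 22.5, reached the macrophage range of 14.9 to 28.8. Stat5b made up 76.7 ± 1.76% of the per-length sum of Stat5a and Stat5b in spleen air and 75.9 ± 0.595% in exposed spleen. In macrophages it was 82.8 ± 1.34% in air and 83.1 ± 0.762% in PM2.5, with no overlap between the preparations.

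**Figure D3:**
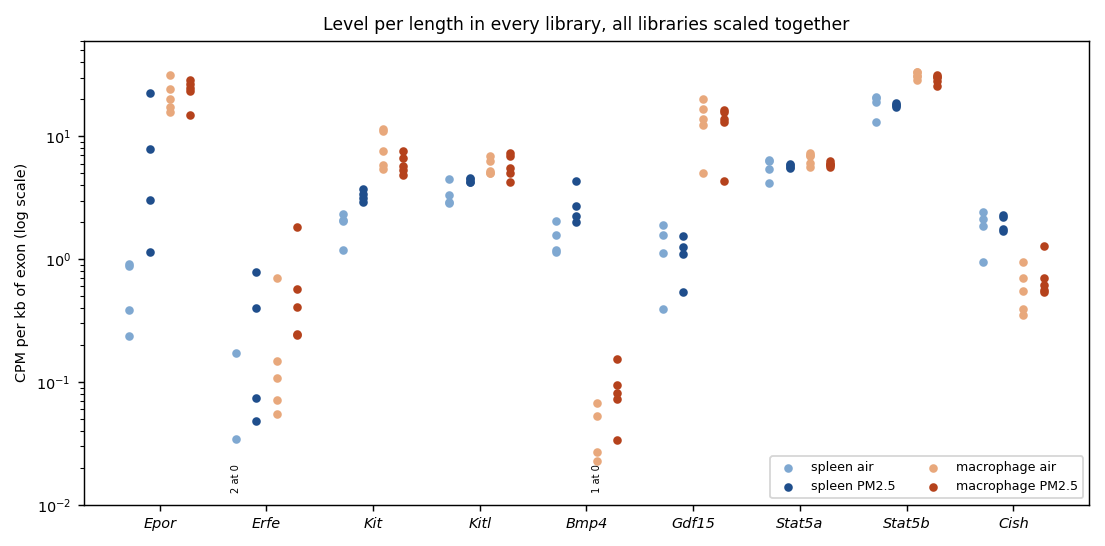
Level of each gene in CPM per kb of exon (y axis, log scale) in every library, coloured by group, with all 18 libraries scaled together. Epor spans 0.238 to 22.5 CPM per kb in spleen and 14.9 to 31.4 in macrophages, and Bmp4 lies lower in all 10 macrophage libraries than in all 8 spleen libraries; libraries with a count of 0 are written as numbers at the base.

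The relation of the receptor to erythroid transcripts differed between the preparations. Gata1, which red cell precursors, megakaryocytes and mast cells express, had 106, 35, 49 and 31 counts in spleen air and 52, 1287, 264 and 636 counts in exposed spleen. In macrophages it had 134, 213, 46, 158 and 296 counts in air and 227, 491, 536, 164 and 648 counts in PM2.5. The ratio of Epor to Gata1, each per kb of exon, was 0.25 to 1.3 in spleen air (median 0.448) and 0.618 to 1.3 in exposed spleen (median 0.764). It was 4.29 to 22.3 in macrophage air (median 6.03) and 2.86 to 4.43 in macrophage PM2.5 (median 3.71). The spleen groups overlapped each other, and all 10 macrophage libraries lay above all 8 spleen libraries. In macrophages the 2 exposure groups overlapped by 1 air value, 4.29. For Kit the ratio to Gata1 was 0.893 to 3 in spleen air and 0.134 to 4.2 in exposed spleen, so Kit did not keep step with Gata1 in the exposed spleens. Erfe stayed between 0 and 0.0833 of Gata1 per kb in spleen and between 0.0164 and 0.324 in macrophages.

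**Figure D4:**
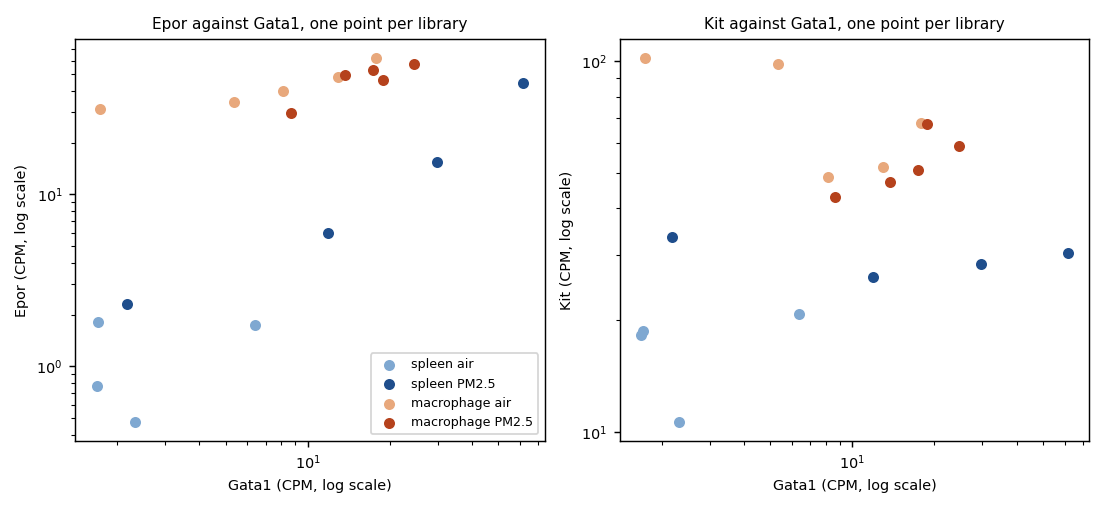
Epor (left) and Kit (right) against Gata1, all in CPM on log axes with all libraries scaled together, 1 point per library and colour by group. The 3 spleen libraries with most Gata1 have most Epor, at ratios per kb of 0.25 to 1.3 over all spleen libraries, while macrophage libraries lie above them at 2.86 to 22.3, and Kit shows no such order.

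Last, the genes whose pattern was most like each member were found from Pearson's r of log2(CPM + 1), taken relative to the group mean, over all 18 libraries. With a mean of at least 1 CPM, 14553 genes were ranked (14554 for Erfe). The libraries share depth and cell content, so these values are a description. Among the genes most like Epor were Nadk2 (r 0.976, and 0.922 without the 2 libraries farthest from the median) and Slc16a10 (0.972). Its likeness to both was greater than that of any other member to its nearest gene. Erfe was most like Apip (r 0.901), Ndufv1 (0.881) and Yipf4 (0.865). Kit was most like Gm15925 (0.896), Klri1 (0.888) and Anpep (0.887), and Kitl like Arhgap32 (0.87), Fmnl2 (0.855) and Herc6 (0.84). Bmp4 was most like Pdzrn3 (0.887), Lama4 (0.862) and Clmp (0.858), of which Lama4 encodes a basement membrane laminin. With spleen air replicate 1 and spleen PM2.5 replicate 4 left out, r for Pdzrn3 was 0.767. Gdf15 was most like Ivd (0.831), Zdhhc1 (0.771) and Aloxe3 (0.761), and the last of these was 0.451 without macrophage air replicate 3 and PM2.5 replicate 4. Stat5a was most like Gm37305 (0.903), Prr14 (0.891) and B4galnt1 (0.88), and Stat5b like Kremen1 (0.926), Abl1 (0.925) and Gtpbp1 (0.925). Cish was most like Rsrp1 (0.895), Ewsr1 (0.837) and D030056L22Rik (0.817). Among the members themselves, Stat5a and Stat5b were most alike (r 0.777), followed by Epor and Erfe (0.624), while Epor and Kit were not alike (0.0238).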

How the data were processed

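Polyadenylated RNA of 18 mouse samples was sequenced, 8 whole spleens and 10 macrophage preparations, after RNeasy extraction and NEBNext Ultra II library preparation per the labels. The deposited table holds raw counts, whole reads per Ensembl gene that the authors made with HTSeq 0.10.0 after FastQC 0.10.1 on builds named mm10 and GRCm38, per the submitters' processing notes. Which aligner, gene annotation and strand option were used is not given in the sources used here. Of 55414 identifiers, 52081 matched GENCODE M21. No library was a copy of another.

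The counts were tested with edgeR 4.0.16 in R 4.3.3 (filterByExpr at min.count 10 and min.total.count 15, TMM, quasi-likelihood test, two-sided, Benjamini-Hochberg over all tested genes, threshold 0.05). Spleen and macrophages were fitted separately. The difference of effects and the comparison of preparations came from 1 fit of all 18 libraries. CPM are counts relative to the TMM-scaled total, and CPM per kb divide by the length of the merged exons. Alternatives were DESeq2's size factors, upper-quartile scaling, DESeq2 1.42.0, limma-voom (limma 3.58.1), other filters, a robust fit, a threshold of 0.1, a replicate block and omitted or regrouped libraries. The steps were tested on simulated data. The members, the gene lists and several alternatives were chosen with earlier results of these data known. All members are described. Of each pathway list, the called genes (up to 6) or else the 3 genes with the smallest p could be named. The choice of marker genes and DESeq2 calls to name was made with their values known. The levels of lymphocyte markers in the macrophage libraries, and with them the purity of that preparation, are not reported here, nor is 1 gene ranked by likeness.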

Additional observations from a re-analysis of the deposited data

Results flagged for a closer look

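The level of each of the 9 genes was examined in each of the 4 groups for a library far from the others by the gap criterion of Dixon at the 95% level, 36 groups in all, and 4 were found. Chance alone flags about 1 in 20 such groups. Erfe had a far higher value in macrophage air replicate 5, at 1.82 CPM, than in the other 4 air libraries. In macrophage PM2.5 replicate 1 Erfe was again far above its group, at 4.74 CPM. The same library, whose treatment tag says air, had the highest Cish of its group, at 7.64 CPM. Gdf15 was far below its group in macrophage PM2.5 replicate 4, at 7.33 CPM.

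The PM2.5 effect on Epor differed between the preparations by the test of the difference itself, but the call was lost in 16 of 30 alternatives. Preparation and experiment cannot be told apart here. The log2 fold change in macrophages minus that in spleen was -3.74, with an edgeR adjusted p of 0.039 that lay between 0.00215 and 0.17 over the alternatives.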

How the results depend on the processing

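With 4 or 5 libraries a group, the counts of calls depended on the method, and the cause was not tested. In spleen edgeR called 2 genes, against 830 by DESeq2, 1 with DESeq2's size factors, 1 by limma-voom, 461 without a filter, 12 with at least 1 CPM, 62 at a threshold of 0.1 and 1050 in the joint fit. It called 0 genes without the air libraries with liver transcripts, 0 without PM2.5 libraries 2 and 4, and 0 to 219 with single libraries left out. Members called in spleen numbered 0, against 2 by DESeq2 and without a filter, 1 in the joint fit and 0 to 1 with single libraries left out. In macrophages 0 genes were called, against 175 by DESeq2, 1 without a filter and 0 to 17 with single libraries left out, and 0 members in all 21 alternatives. For the difference of effects, 259 genes were called, against 1044 by DESeq2, 3 by limma-voom, 1102 at 0.1, 9 without the liver-transcript libraries, 48 without spleen PM2.5 libraries 2 and 4, 87 with macrophage PM2.5 library 1 as air, and 68 to 1317 with single libraries left out. The member count of 1 became 2 by DESeq2, without a filter, with 1 CPM and at 0.1, and 0 by limma-voom, without either library pair and with macrophage PM2.5 library 1 as air, and 0 to 2 with single libraries left out. In the robust fit the called member was Kit (adjusted p 0.0489) in place of Epor (0.053). The comparison of preparations kept 7 or 8 member calls in all 20 alternatives, among 10520 to 12788 called genes.

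Same-numbered libraries did not deviate together in most pairs (r from -0.147 to 0.077 in spleen and -0.153 to 0.355 in macrophages). The pairing of macrophage replicates 4 (r 0.355) and 5 (0.312) was the exception, and 3 of 9 numbers matched best with their own. With a replicate block, 3 genes were called in spleen, and in the difference of effects 91 genes and 0 members, with Epor at -3.16 (adjusted p 0.0909) and Gdf15 at -0.0105 under the replicate block.

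Of 774 alternative values of single members, 701 kept direction and side of the threshold, 16 lost a call, 20 gained one and 37 changed sign. All changes of sign were in values that were not called. In spleen Gdf15 was 0.173 and Stat5b 0.0843 without the liver-transcript libraries, and Gdf15 0.0799 without PM2.5 libraries 2 and 4. In macrophages Gdf15 was 0.00726 by limma-voom, and with PM2.5 library 1 as air Erfe was -0.355 and Cish -0.231. In the difference, without the liver-transcript libraries Gdf15 was -0.244 and Cish -0.0228, without spleen PM2.5 libraries 2 and 4 Erfe was 1.26 and Gdf15 -0.174, and with macrophage PM2.5 library 1 as air Stat5b was 0.0109 and Cish -0.326. Between preparations Stat5a was -0.0522 with upper-quartile scaling. With single libraries left out, spleen values were -0.0894 to 0.109 for Stat5a, -0.121 to 0.255 for Cish, -0.175 to 0.0274 for Stat5b and -0.474 to 0.105 for Gdf15. Macrophage values were -0.0572 to 0.121 for Kitl and -0.317 to 0.123 for Gdf15. Differences were -0.1 to 0.624 for Bmp4, -0.0688 to 0.457 for Cish, -2.93 to 0.0604 for Erfe, -0.196 to 0.354 for Gdf15 and -0.144 to 0.0579 for Stat5b. Counts under 10 in most libraries limit what can be said of Erfe in spleen and Bmp4 in macrophages.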
